A study of Astatotilapia calliptera and Pundamilia nyererei and Oreochromis niloticus with 31 samples.

Results

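The libraries described here are the small RNA (sRNA) libraries of Astatotilapia burtoni (AB), a haplochromine cichlid of Lake Tanganyika: 4 libraries from testes (replicates 1 to 4) and 1 from ovaries (replicate 4), which are 5 of the 31 libraries of the series analysed here. All came from wild-type fish, were frozen gonads supplied to the study by another laboratory, and were prepared with the same library protocol. By the study's methods, replicates of an organ came from different fish of similar size, and the age of the AB fish is not stated in the sources used here. Reads in the size range of PIWI-interacting RNAs (piRNAs) were counted by the authors over the families of transposable elements (TEs) annotated in the AB genome.

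piRNAs are small RNAs bound by Piwi proteins, and in the animal germline they guide these proteins to TE transcripts, which are cut or silenced. Cut transcripts can be made into further piRNAs, so the piRNAs that map to a TE family depend both on the loci that produce piRNAs and on the transcripts available to be cut. In zebrafish, Piwi proteins are present in testes and ovaries alike. TE families of AB carry identifiers from RepeatModeler, in which round 1 holds families found by RepeatScout and later rounds hold families found by RECON in growing samples of the genome. The table pairs no family with a TE name, class or sequence, so families are given by identifier.

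The AB table lists 751 families. Of these, 749 had a value and 2 were listed at 0 in every library. The authors deposited them after DESeq2's regularised log transformation (rlog), on the log2 scale. This transformation puts libraries on a common scale and draws the values of rare families together, so differences of rare families are understated. A minimum mean of 10 on the linear scale, which is 3.32 on the log2 scale, left 592 families for the comparison of organs and set aside 157. Shares are given of the summed linear values of a library. They are therefore approximate, are not corrected for the length or copy number of a family, and compare families only as to how much sRNA maps to them.

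With 1 ovary library there is no spread between ovaries, and no test was made. Some ovary samples of the study failed quality control and were excluded, which its authors put down most likely to yolk. The RNA quality of the ovary library used here was not tested. A family is called higher or lower in testes where all 4 testis values lay above or below the ovary value, and each difference is the testis mean minus the ovary. Another testis library would also lie outside the range of these 4 for many families, so a call alone does not measure an organ difference. The deposited values carry no read depth, so the precision that depth gives to a single value was not computed. By the study's mapping statistics the ovary library had fewer reads than any testis library, and the part of this in the differences was not tested. The table holds no genes, so the organ labels could not be checked against germ cell or somatic markers. In whole organs, fewer cells of a type and less RNA per cell cannot be told apart.

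A single family, rnd-1_family-601, led every library. It held 27.8%, 16.8%, 33.0% and 18.6% of the summed value in testes replicates 1 to 4, against 13.3% in the ovary. All testes lay above the ovary, and replicates 1 and 3 lay well above replicates 2 and 4. On the log2 scale its values were 16.14, 15.19, 16.46 and 15.36 in testes and 14.94 in the ovary, a difference of 0.85 beside an SD between testes of 0.61 (n = 4). The gap of 0.25 from the ovary to the nearest testis was smaller than the range of 1.27 among the testes.

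The second family of every library, rnd-4_family-707, lay the other way. Its share was 1.77%, 2.08%, 1.33% and 1.71% in testes and 3.57% in the ovary. Its log2 values were 12.17, 12.18, 11.82 and 11.91 in testes and 13.05 in the ovary, a difference of -1.02 with an SD between testes of 0.18 (n = 4). The ratio of the first family to the second was 15.7, 8.07, 24.8 and 10.9 in testes and 3.72 in the ovary, so the lead of the first family was shorter in the ovary than in any testis.

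The same 10 families led all 4 testes, and they are the 10 with the highest mean over the 5 libraries. Together they held 34.6% ± 6.56 of the summed value in testes (SD, n = 4; 28.4% to 42.0%) and 26.6% in the ovary. With rnd-1_family-601 taken out of the summed value as well, families 2 to 10 held 13.9% ± 0.359 in testes (SD, n = 4; 13.5% to 14.3%) and 15.3% in the ovary, a smaller gap in the other direction. Of the 10, 5 were higher in testes and 5 lower, beside 48.1% higher and 34.1% lower over all 592 families. None of the 5 higher ones and 2 of the 5 lower ones differed by 1 or more on the log2 scale. Over all 592 families, 20.1% were higher and 10.5% lower by that much. The 10 were picked by level. Which of the 10 differed by 1 or more depended on the scaling. With libraries scaled to the same sum over all families but the first, rnd-5_family-544 differed by 1.04, rnd-4_family-707 by -0.87 and rnd-5_family-482 by -0.88. These 10 families are the leaders of the testes, and with the 10 leading families of each library taken instead the ovary held 29.2%. That lay inside the testis range of 28.4% to 42.0%.

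**Figure D1:**
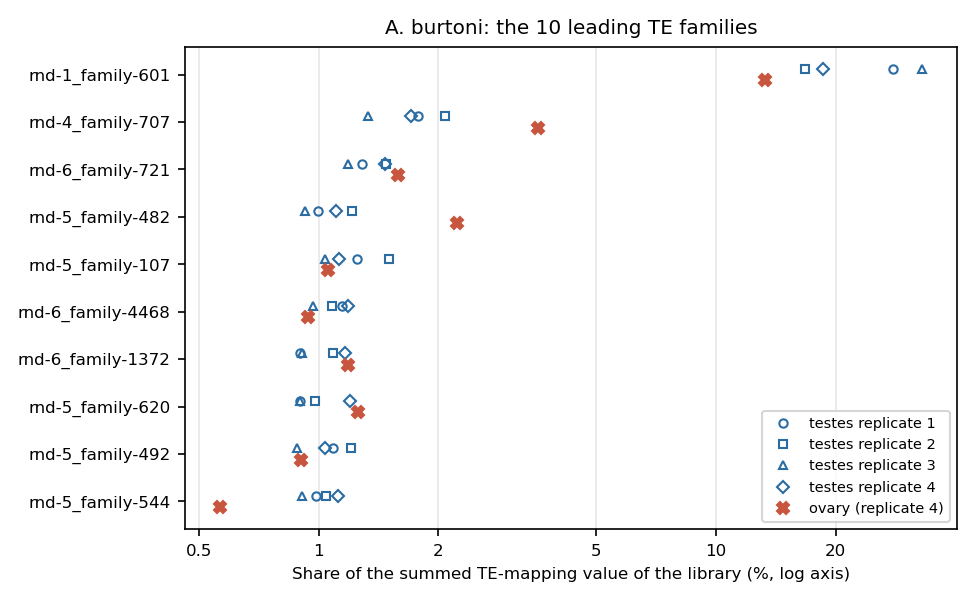
Share of the summed value of each library (%, log axis) for the 10 leading TE families, with open symbols for testes replicates 1 to 4 and crosses for the ovary. The first family takes 16.8% to 33.0% in testes and 13.3% in the ovary, while the other 9 each stay under 4% in every library.

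Besides rnd-1_family-601, the leading families that were higher in testes were rnd-5_family-544, rnd-6_family-4468, rnd-5_family-492 and rnd-5_family-107. rnd-5_family-544 had 11.33, 11.18, 11.27 and 11.30 in testes and 10.39 in the ovary (log2), a difference of 0.88 with an SD between testes of 0.063 (n = 4), and its rank by level in the ovary was 31. The other differences were small. rnd-6_family-4468 had 11.54, 11.24, 11.36 and 11.39 in testes and 11.12 in the ovary, a difference of 0.26, and rnd-5_family-492 had 11.46, 11.39, 11.23 and 11.20 in testes and 11.06 in the ovary, also a difference of 0.26. rnd-5_family-107 had 11.66, 11.71, 11.47 and 11.31 in testes and 11.29 in the ovary, a difference of 0.25. All 3 differences depended on the scaling. They were near 0 when every library was centred on its own median, which gave 0.012 for rnd-6_family-4468, 0.0058 for rnd-5_family-492 and -0.0025 for rnd-5_family-107. With libraries scaled to the same sum over all families but the first they were larger, at 0.42, 0.41 and 0.40 in that order.

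The leading families that were lower in testes, besides rnd-4_family-707, were rnd-5_family-482, rnd-5_family-620, rnd-6_family-721 and rnd-6_family-1372. The widest gap was that of rnd-5_family-482, with 11.34, 11.40, 11.30 and 11.29 in testes and 12.37 in the ovary, a difference of -1.04 with an SD between testes of 0.050 (n = 4). rnd-5_family-620 had 11.19, 11.09, 11.26 and 11.40 in testes and 11.54 in the ovary, a difference of -0.30. That difference also depended on the scaling. It was -0.55 with each library centred on its median, and -0.15 with libraries scaled to the same sum over all families but the first. The 2 others lay close to the testes: rnd-6_family-721 had 11.71, 11.68, 11.65 and 11.69 in testes and 11.87 in the ovary, and rnd-6_family-1372 had 11.19, 11.24, 11.27 and 11.36 in testes and 11.46 in the ovary. Both differences were -0.19, against SDs between testes of 0.023 and 0.073 (n = 4 each), and both depended on the scaling. They were -0.44 with each library centred on its median, and -0.038 for rnd-6_family-721 and -0.037 for rnd-6_family-1372 with libraries scaled to the same sum over all families but the first.

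Of the 10 families that led the ovary, 6 were among the 10 that led the testes and 4 were not. These 4 are named because of their place in the ovary, after their values were seen. rnd-1_family-458 ranked 3 in the ovary, with log2 values of 9.75, 9.58, 9.59 and 9.52 in testes and 12.40 in the ovary, a difference of -2.79. Its share was 0.321% ± 0.0267 in testes (SD, n = 4) and 2.29% in the ovary. rnd-6_family-2427 ranked 6 in the ovary, with 10.48, 10.24, 10.02 and 10.03 in testes and 11.83 in the ovary. It took 0.485% of the summed value in testes, on average, and 1.53% in the ovary. rnd-6_family-435 held 0.412% in testes, on average, and 1.16% in the ovary, and rnd-5_family-853 held 0.708% in testes, on average, and 1.11% in the ovary. All 4 ovary values lay above every testis. Among the 50 leading families of each organ, 31 of 50 were shared.

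How far the summed value was concentrated depended on the first family. In testes replicates 1 to 4, the fewest families that together held 50% of the summed value numbered 31, 51, 24 and 47, against 40 in the ovary, which lay inside the testis range. With rnd-1_family-601 left out of each library, the numbers were 71, 75, 74 and 74 in testes and 54 in the ovary. The ovary then lay below all testes, so what remained was spread over fewer families in the ovary. For 90% of the summed value, all families included, 233, 269, 229 and 259 families were needed in testes and 227 in the ovary. Families that each held over 1% numbered 6, 9, 4 and 10 in testes and 11 in the ovary.

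**Figure D2:**
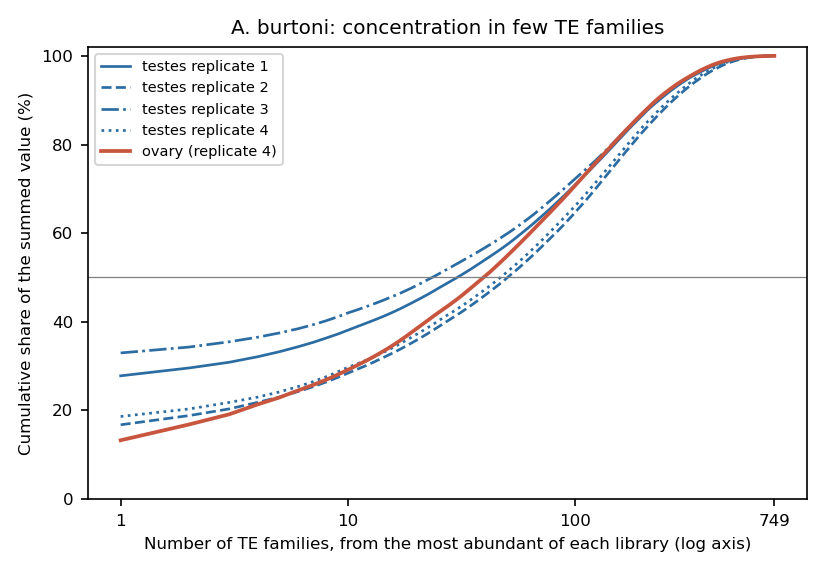
Cumulative share of the summed value (%) against the number of TE families, counted from the most abundant of each library (log axis), for testes replicates 1 to 4 and the ovary. The ovary curve starts lowest, at 13.3%, and reaches 50% at 40 families, between the testis curves, which reach it at 24 to 51 families.

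Across the 592 families, 285 (48.1%) were higher in testes and 202 (34.1%) were lower, so that the ovary lay outside the testis range for 487 families (82.3%) and within it for 105. By at least 1 on the log2 scale, 119 families (20.1%) were higher in testes and 62 (10.5%) were lower. The excess of higher families depended on the scaling. Of the 487 families outside the range, 58.5% were higher in testes. With each library centred on its median, 229 families were higher and 257 lower (47.1% higher), and by at least 1 on the log2 scale 86 were higher and 97 lower. Such centring draws the counts in both directions toward each other by design. With libraries scaled to the same sum, 261 were higher and 199 lower. The same sum over all families but the first, chosen after seeing the data, gave 319 higher and 168 lower. The minimum also acted unequally, since it was set on a mean over 4 testes and 1 ovary: 41 families passed it with an ovary value under 10 on the linear scale, and 6 with a testis mean under 10. Among the 545 families at or over 10 in both organs, 250 were higher in testes and 196 lower, and by at least 1 on the log2 scale 90 were higher and 57 lower.

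The median difference over families was 0.22, and against single testes it was 0.17, 0.30, 0.18 and 0.18 for replicates 1 to 4 (SD 0.062). It was 0.077 under a stricter minimum of 100 (linear scale), and 0.37 over all 592 with libraries scaled to the same sum over all families but the first. The middle 50% of families had differences from -0.41 to 0.85, and 90% lay between -1.53 and 1.99. Differences of at least 2 on the log2 scale were found for 30 families higher in testes and 11 lower, and of at least 3 for 8 higher and 2 lower. These counts take in families that passed the minimum through the organ where they are high. Of the 119 families higher by at least 1, 29 had an ovary value under 10 on the linear scale. Of the 62 lower by at least 1, 5 had a testis mean under 10. The gap between the ovary and the nearest testis was wider than the whole testis range for 312 of the 487 families, of which 182 were higher in testes and 130 lower.

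**Figure D3:**
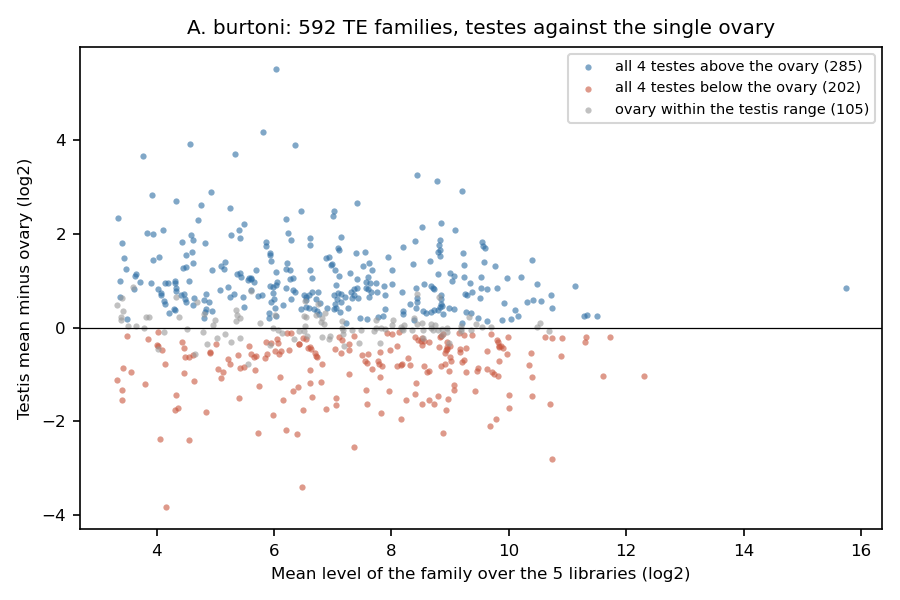
Testis mean minus ovary (log2) against the mean level over the 5 libraries (log2) for 592 TE families, coloured by whether all 4 testes lay above the ovary (285 families), all below it (202) or the ovary lay within their range (105). Points are spread most widely at low and middle levels, and the rightmost point is rnd-1_family-601.

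Of the summed value in testes, 11.5% ± 1.48 mapped to the 119 families higher there by at least 1 on the log2 scale (SD, n = 4), against 4.06% in the ovary. The 62 families lower in testes by at least 1 held 8.49% ± 0.878 in testes and 24.3% in the ovary. These families were picked by the same difference, so the shares describe their size and are no further evidence of it. By this measure the families at least 1 lower in testes carried more of the TE-mapping sRNA of the ovary than the families at least 1 higher carried of that of the testes. That order depended on the cutoff, which left out rnd-1_family-601 with its difference of 0.85 (1.05 without testes replicate 2). With no cutoff on size the order turned round. The 285 families higher in testes held 59.3% ± 3.63 there (SD, n = 4), and the 202 lower ones held 55.2% in the ovary. The 285 include rnd-1_family-601, which alone held 24.0% in testes, on average. The order with that family taken out of the group and the sum was not computed.

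The median difference was lower among the more abundant families. With the families put in 5 groups of 118 or 119 by their mean level, the median difference from the lowest group to the highest was 0.47, 0.40, 0.40, 0.037 and -0.078. In the lowest group, 63 of 119 families were higher in testes and 32 lower, while in the highest group 48 of 119 were higher and 57 lower. These are 52.9% and 26.9% in the lowest group and 40.3% and 47.9% in the highest, beside 48.1% higher and 34.1% lower over all 592. The lowest group thus had fewer families lower in testes than the whole, and the highest had more. The minimum let in 41 families with an ovary value under 10 on the linear scale, 35 of them higher in testes and 0 lower. It let in 6 with a testis mean under 10, all lower in testes. How far such families shaped the trend over levels was not tested. The 50 leading families had a median difference of -0.19, with 20 higher and 27 lower, beside 0.22 over all 592. The highest group held 72.0% of the summed value in testes, on average, and 71.6% in the ovary, and without rnd-1_family-601 in the sum 63.2% ± 1.01 in testes (SD, n = 4) and 67.3% in the ovary. Rare families also varied more between testes, with a median SD of 0.28 in the lowest group and 0.10 in the highest.

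The 2 families with the largest differences toward testes were both of round 1. rnd-1_family-257 had 5.69, 6.45, 5.99 and 6.97 in testes and 0.76 in the ovary (log2), a difference of 5.51 with an SD between testes of 0.56 (n = 4). rnd-1_family-392 had 6.19, 5.87, 6.08 and 6.26 in testes and 1.94 in the ovary, a difference of 4.16 with an SD of 0.17 (n = 4). Both passed the minimum through the testes alone, with ovary values of 1.70 and 3.84 on the linear scale. A pseudocount of 10 on the linear scale, which damps low values, gave differences of 2.91 and 2.51 for them.

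The 2 families with the largest differences toward the ovary were also of round 1. rnd-1_family-130 had 2.44, 2.47, 2.08 and 2.16 in testes and 6.12 in the ovary, a difference of -3.83 with an SD between testes of 0.19 (n = 4), and of -2.41 with the pseudocount of 10. It passed the minimum through the ovary alone, with a mean of 4.92 in testes and 69.3 in the ovary on the linear scale. rnd-1_family-13 had 5.05, 5.03, 4.86 and 4.87 in testes and 8.34 in the ovary, a difference of -3.39 with an SD of 0.10 (n = 4). In both, the 4 testes lay within 0.38 of each other and far below the ovary.

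Some abundant families hardly differed between organs on the deposited scale. Among the 50 leading families, the 2 nearest to no difference were rnd-5_family-585 and rnd-5_family-590, and for both the ovary lay within the testis range. rnd-5_family-585 had 10.47, 10.49, 10.56 and 10.38 in testes and 10.47 in the ovary. rnd-5_family-590 had 10.64, 10.93, 10.58 and 10.47 in testes and 10.72 in the ovary. Their differences were 0.0041 and -0.067, and with 1 ovary the error of these differences is not known. Both depended on the scaling. They were -0.25 and -0.32 with each library centred on its median. With libraries scaled to the same sum over all families but the first they were 0.16 and 0.085.

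The testes were close to each other for most families. The SD over the 4 testes had a median of 0.16, with the middle 50% of families between 0.097 and 0.29, and it exceeded 0.5 for 59 of 592 families and 1 for 3. The median absolute difference between testis mean and ovary was 0.69. The largest SD, 1.37, was that of rnd-1_family-521, with 5.66, 5.38, 4.79 and 2.64 in testes and 2.33 in the ovary. The next, 1.27, was that of rnd-5_family-2033, with 5.05, 4.01, 3.65 and 2.0 in testes and 5.10 in the ovary. In both, replicate 4 was the lowest testis, and for rnd-5_family-2033 the ovary was barely above the highest testis. Over all families, replicates 1 to 4 were the highest testis for 131, 207, 125 and 129 families and the lowest for 154, 136, 173 and 129.

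**Figure D4:**
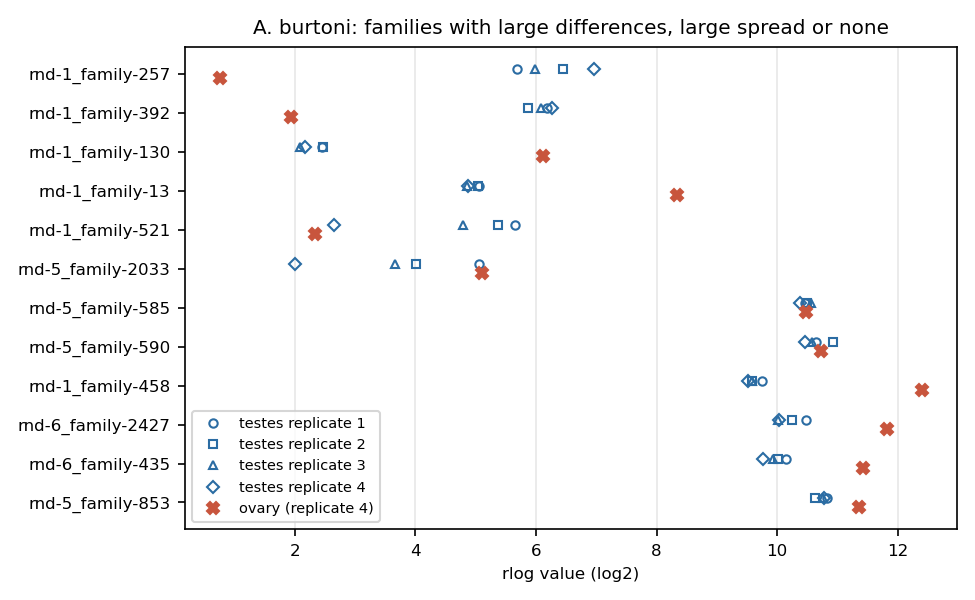
rlog values (log2) of the families with the largest differences in each direction, the largest spread between testes, the smallest differences among abundant families, and the 4 families that lead only the ovary, with open symbols for testes replicates 1 to 4 and crosses for the ovary. For rnd-1_family-257 the testes lie between 5.69 and 6.97 and the ovary at 0.76, while for rnd-5_family-585 all 5 libraries lie between 10.38 and 10.56.

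Pairs of libraries show the same from their whole profiles. The share of the summed value that would have to move between families to turn one library into the other was 23.0% to 29.8% for the 4 pairs of a testis with the ovary, against 6.06% to 16.8% for the 6 pairs of testes. Much of the difference of testes replicates 1 and 3 from replicates 2 and 4 was rnd-1_family-601. Without it the share was 23.2% to 24.9% for testis and ovary and 5.37% to 6.70% for pairs of testes. Leaving it out changed the other pairs of testes less, from 7.18% to 5.67% for replicates 1 and 3 and from 6.06% to 6.28% for replicates 2 and 4. Across families, which are not independent replicates, Spearman's rho was 0.880 to 0.901 between a testis and the ovary and 0.979 to 0.987 between testes. The order of families was therefore largely shared between the organs, and more so among the testes.

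Families were also grouped by the round of RepeatModeler in which they were found. In rounds 1, 5 and 6 the shares of families in each direction stayed near those over all families. Round 4 lay further off, at a lower median level (6.27, against 7.07 over all, on the log2 scale). The 59 families of round 4 had a median difference of 0.55, beside 0.22 over all 592, with 34 (57.6%) higher and 16 (27.1%) lower in testes, beside 48.1% and 34.1% over all. All 66 round 4 families with a value, those under the minimum included, held 7.43% ± 1.02 in testes (SD, n = 4) and 9.27% in the ovary. Without rnd-1_family-601 in the sum they held 9.77% ± 0.465 in testes and 10.7% in the ovary. A single family of this group, rnd-4_family-707, held 1.72% in testes, on average, and 3.57% in the ovary. The 266 families of round 1 had a median difference of 0.20, with 133 (50%) higher and 95 (35.7%) lower, close to the whole. All 363 round 1 families with a value, those under the minimum included, held 48.7% ± 5.40 in testes and 40.1% in the ovary, and with rnd-1_family-601 taken out of both the group and the sum 32.4% ± 0.351 in testes and 30.9% in the ovary. Families of rounds 5 and 6 had median differences of 0.16 and 0.21 over 163 and 86 families. Rounds 2 and 3 were small: of 5 families in round 2, 4 were higher in testes and none lower (median difference 0.45), and of 13 in round 3, 6 were higher and 3 lower (median difference 0.067). The median SD between testes was 0.13 in round 1, 0.25 in round 4, 0.19 in round 5 and 0.21 in round 6.

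Single ovaries of 2 other species with 4 testis libraries, Pundamilia nyererei (PN) and A. calliptera (AC), were placed against their testes in the same way. Each table was normalised on its own and has its own families, so the values are set side by side without a test. The AC values are those of the default TE annotation, not of the curated one. Families outside the testis range made up 83.5% and 83.5% for the 2 PN ovaries, 77.4%, 71.9% and 78% for the 3 AC ovaries, and 82.3% for the AB ovary. Differences of at least 1 on the log2 scale in either direction were found for 30.6% of AB families, against 7.68% and 17.5% of PN families and 8.05% to 12.2% of AC families. The median absolute difference was 0.69 in AB, 0.37 and 0.44 in PN and 0.35 to 0.41 in AC, beside median SDs between testes of 0.16 in AB, 0.099 and 0.098 in PN and 0.13 in AC. Against 3 testes each, Oreochromis niloticus (ON) ovaries had 17.2% to 17.9% of families at least 1 apart, and the AB ovary 30.8% to 32.4% with 1 testis left out in turn. The AB ovary thus had the largest share of such families among the 9 ovaries, and its lower read number was not separated from this.

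In the share of each library's most abundant family the AB organs lay opposite to those of PN and AC. In AB it was 16.8% to 33.0% in testes and 13.3% in the ovary. In PN it was 3.98% to 4.89% in testes and 14.5% and 21.0% in ovaries, and in AC 2.30% to 3.04% in testes and 17.6%, 35.6% and 39.2% in ovaries. In ON the organs overlapped, with 10.8%, 14.5% and 14.9% in testes and 12.4%, 21.2% and 44.0% in ovaries. The number of families that held 50% of the summed value was 24 to 51 in AB testes and 40 in the AB ovary, 48 to 52 in PN testes and 30 and 21 in PN ovaries, and 58 to 61 in AC testes and 9, 12 and 24 in AC ovaries. In ON it was 31 to 39 in testes and 24, 32 and 2 in ovaries.

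**Figure D5:**
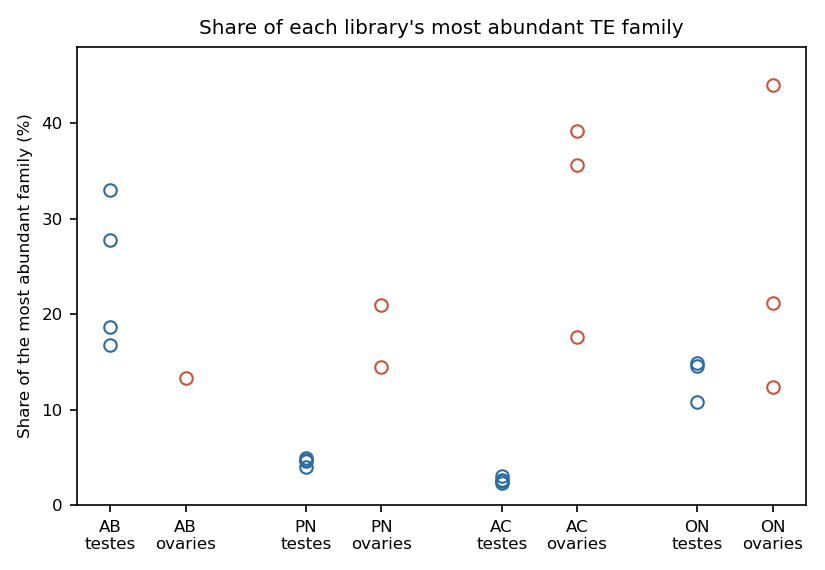
Share of the summed value held by the most abundant TE family of each library (%), with 1 point per library, testes left of ovaries for each species. The AB ovary, at 13.3%, lies below the 4 AB testes, while all PN and AC ovaries, at 14.5% to 39.2%, lie above the testes of their species.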

How the data were processed

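The authors removed adapters with cutadapt 1.15, kept reads in the piRNA size range, mapped them with STAR 2.5.4b, counted them over TE families with featureCounts 1.6.0 and normalised the counts with DESeq2. The version of DESeq2 is not given in the sources used here. They deposited rlog values on the log2 scale, 1 per family and library, in a separate table for each annotation. Read counts and depths are not in these values, so no count model was run, and no interval for counting error is given. All columns used were matched to samples by name, and the number of columns without a sample was 0.

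Values were turned to the linear scale (2 to the power of the value) for shares. Families were placed against the range of the testes if their mean over the 5 libraries was at least 10. Named families are the 10 with the highest mean, the 2 largest differences in each direction outside the testis range, the 2 largest SDs between testes and the 2 smallest differences among the 50 leading families. Families and lists were chosen with earlier results of these data known. The alternatives were other minimums (none and 100), pseudocounts of 1 and 10, a margin of 0.5 around the testis range, centring on the median, scaling to the same sum and each testis left out in turn. A further one, the same sum over all families but the most abundant, was chosen after seeing the data. The calculation was tested on simulated data. Python 3.11.15, numpy 2.4.6, pandas 2.3.3 and matplotlib 3.10.9 were used.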

Additional observations from a re-analysis of the deposited data

How the results depend on the processing

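With 1 ovary library no setting gives an error for the ovary, and low rlog values carry fewer reads than their decimals show. No paired analysis was made. There is 1 ovary library, and the replicate number 4 that it shares with a testis library does not mark a pair. A minimum mean of 100 left 151 families higher in testes and 125 lower, 53 and 35 of them by at least 1 on the log2 scale, with a median difference of 0.077. Requiring the ovary to lie 0.5 outside the range left 172 higher and 97 lower. Centring on the median moved all families by -0.25 and gave 97 families lower by at least 1. Scaling to the same sum moved them by -0.045, and to the same sum without the most abundant family (chosen after seeing the data) by 0.15, which gave a median difference of 0.37. The cause of these changes was not tested beyond the shifts given. Leaving out each testis in turn gave 291 to 300 families higher and 211 to 217 lower in testes, and 116 to 128 and 61 to 66 by at least 1. Of the named families, 3 changed sign. rnd-5_family-107 became -0.0025 with centring on the median. rnd-5_family-585 became -0.25 with that centring, -0.041 with the same sum, and -0.024 to 0.036 when each testis was left out in turn (-0.024 without replicate 3 and -0.00088 without replicate 2). rnd-5_family-590 became 0.085 with the same sum without the most abundant family. Among results over all families and shares of the leading families, 60 alternative values lay within 1.5 times a reported count or 1 SD between testes of another value, and 9 did not. That tolerance takes in the counts of 229 higher and 257 lower with centring on the median, which turn the excess of higher families round, and counts of 86 to 148 families higher by at least 1, against 119. Among single families 157 values lay within 1 SD, 35 moved and 6 reversed.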

Other observations

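The 157 families under the minimum held 0.283% ± 0.0535 of the summed value in testes (SD, n = 4) and 0.264% in the ovary. For 98 of these 157 families the ovary lay outside the testis range, a smaller part than the 487 (82.3%) of the 592 families above the minimum. The 157 had a median absolute difference of 0.26 and a median SD between testes of 0.18, against 0.69 and 0.16 for the 592. The 157 were closer between the organs on the log2 scale, but the minimum itself favours this. A family high in 1 organ alone can pass the minimum through that organ. Of the 592, 41 had an ovary value under 10 on the linear scale and 6 a testis mean under 10. The values therefore cannot show whether rare families differ less between the organs. Within the 592, the lowest group by level had no fewer large differences than the highest. In the lowest of the 5 groups by level, 28 of 119 families were higher in testes by at least 1 and 13 lower. In the highest group these were 16 and 15 of 119. Over all 592 families, 119 (20.1%) were higher by at least 1 and 62 (10.5%) lower. How far families that passed the minimum through 1 organ shaped these counts was not tested. The rlog transformation draws the values of rare families together, and its part was not tested.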
